A study of Mus musculus with 32 samples.

Results

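The transcription factors followed here by name act in activated and exhausted T cells: Tox, Tox2, Nr4a1, Nr4a2, Nr4a3, Bhlhe40, Batf, Irf4, Nfatc1 and Prdm1, 10 of the 33654 genes in each expression table. They were taken from a list of names, not by their values. The study sequenced RNA of CD8 T cells and of tumor cells from mice carrying MMTV-PyMT breast tumors, a model in which the mouse mammary tumor virus promoter drives the polyoma virus middle T oncogene in mammary epithelium. Tumors were sampled after 2, 3 and 4 weeks of development. CD8 T cells gave 3 libraries per week, and tumor cells gave 3 libraries at week 2 and 4 at each later week. A second set came from xenografts of MMTV-PyMT cells given a control hairpin RNA (shCTRL, labelled WT) or a hairpin RNA against Mogat1, a monoacylglycerol acyltransferase (shMogat1, labelled Mogat1 knockdown), with 3 CD8 T cell and 3 tumor cell libraries for each hairpin. The hairpin was in the tumor cells, so the CD8 T cells of both arms are host cells. The labels used here give no age, sex, strain or host of the xenografts, and do not say whether libraries came from separate animals.

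When a T cell receptor is engaged, calcium activates the phosphatase calcineurin, which lets NFAT proteins such as Nfatc1 enter the nucleus. NFAT and its AP-1 partners switch on the 3 Nr4a orphan nuclear receptors, the interferon regulatory factor Irf4 and the basic leucine zipper protein Batf, and with lasting stimulation the high-mobility-group protein Tox. Tox and the Nr4a proteins are known for their part in the exhausted state of T cells in tumors and chronic infection, in which inhibitory receptors stay high. Bhlhe40, a basic helix-loop-helix repressor, and Prdm1 (Blimp-1), a zinc-finger repressor, are linked to effector and tissue-resident programs.

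Values are TPM, in which reads are scaled by gene length and by the library's total, so that genes can be compared within a table. The whole reads behind the TPM of the 10 factors could be recovered, and ranged over the 9 time-course CD8 libraries from 15 to 104 for Tox2, 220 to 720 for Prdm1 and 490 to 975 for Batf, and from 1444 to 31626 for the other 7. Cd8a, the defining chain of these cells, was at 673 to 1173 TPM in the time course and at 677 to 708 TPM in the knockdown set. RNA of other cells was present too. Summed markers of macrophages reached 60.8 to 797 TPM in the time course but 2101 to 2430 TPM in the knockdown set, and summed fibroblast markers reached 667 TPM in week 2 replicate 2 and 583 TPM in week 3 replicate 3 against 33.5 to 137 TPM in the other time-course CD8 libraries. In tissue of this kind, more cells of one type and more RNA per cell cannot be told apart.

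In the knockdown set the hairpin's target was at very low levels, and went against its label. Tumor libraries of the time course, scaled in a separate table, averaged 2.28 ± 1.45 TPM of Mogat1 at week 2, 6.82 ± 2.17 at week 3 and 37.1 ± 1.75 at week 4. In the knockdown set Mogat1 was listed at 0 TPM in all 3 tumor shCTRL libraries. It was at 0.624, 0.146 and 0.531 TPM in those labelled shMogat1, which rest on 12, 2 and 10 reads. Levels this low do not check the labels, and an exchange of the arms would turn the sign of every difference between them. Replicates within the knockdown set also lay close together: the mean chi-square per gene between replicate read numbers was 2.51 to 5.47 for CD8 T cells there against 13.1 to 52.5 in the time course, where counting both ends of each fragment alone would give about 2. For the factors other than Tox2, the coefficient of variation between replicates had a median of 3.21% in the knockdown CD8 libraries and of 18.2% in the time course. For Tox2 it was 41.0%, 68.3% and 29.3% at weeks 2, 3 and 4, and 5.33% in shCTRL and 39.3% in shMogat1 CD8 libraries. Adjusted p-values therefore measure only the spread between these libraries, which may be technical, most of all in the knockdown set.

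In CD8 T cells, 3 of the 10 factors rose from week 2 to week 4: Bhlhe40, Nr4a2 and Tox. None fell. Without the 2 fibroblast-rich libraries 9 were tested, Tox2 being under the filter, and 2 passed, Bhlhe40 and Nr4a2. Across all 13350 genes tested, 17.5% passed the same threshold (10.3% higher and 7.18% lower; 1377 and 958 genes, or 1300 and 1416 with quantile scaling), an adjusted p under 0.05 in limma with Benjamini-Hochberg adjustment over all genes. The median difference of the 10 factors was 0.24 on the log2(TPM + 1) scale, beside -0.01 for all genes tested. Every fold below is on that scale, which understates the change of low genes. Libraries of both weeks did not overlap for 5 of the 10, beside 37% of all genes: Bhlhe40, Nr4a2, Tox and Prdm1 lay higher at week 4 (20.6% of all genes did) and Tox2 lower (16.5%).

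**Figure D1:**
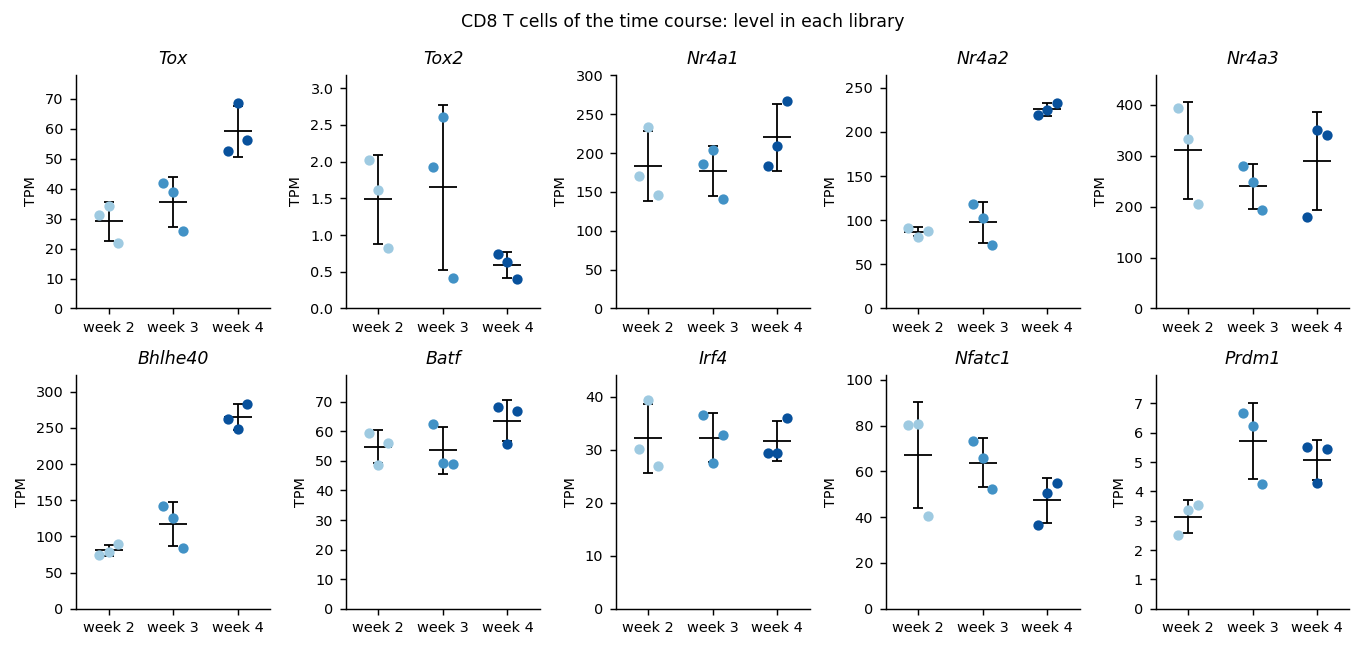
TPM (vertical axes, from 0) of each factor in the 9 CD8 T cell libraries of weeks 2, 3 and 4. Points are libraries, the horizontal bar is the group mean and the whiskers are 1 SD (n = 3). Nr4a2 and Bhlhe40 at week 4 stand above every earlier library, while Irf4 and Batf lie in one range at all 3 weeks.

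The 3 Nr4a genes encode nuclear receptors that bind DNA without a known natural ligand and are made within minutes to hours of receptor stimulation. Their start-proximal sequences are shown because the family shares one feature and yet its members differed in how they moved. RefSeq sequences of GRCm38.p6 are printed 5′ to 3′ on the strand of the gene, with matches to TGACG, the half-site of the cyclic AMP response element, or to its reverse complement CGTCA in capitals. They are chr15:101266596-101266845 (plus strand) for Nr4a1, chr2:57124004-57124253 (minus strand) for Nr4a2, and chr4:48045055-48045152 (plus strand) for Nr4a3. Each run lies upstream of the RefSeq start and outside the exons of the GENCODE annotation. That annotation places Nr4a1 at chr15:101254269-101274795, so the Nr4a1 run lies inside the annotated gene, between exons. No window at the upstream end of that gene was searched.
Nr4a1: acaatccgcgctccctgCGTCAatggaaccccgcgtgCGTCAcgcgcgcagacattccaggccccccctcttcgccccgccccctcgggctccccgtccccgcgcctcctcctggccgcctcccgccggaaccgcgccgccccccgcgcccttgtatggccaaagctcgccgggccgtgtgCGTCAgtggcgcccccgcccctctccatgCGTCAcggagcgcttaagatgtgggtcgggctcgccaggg
Nr4a2: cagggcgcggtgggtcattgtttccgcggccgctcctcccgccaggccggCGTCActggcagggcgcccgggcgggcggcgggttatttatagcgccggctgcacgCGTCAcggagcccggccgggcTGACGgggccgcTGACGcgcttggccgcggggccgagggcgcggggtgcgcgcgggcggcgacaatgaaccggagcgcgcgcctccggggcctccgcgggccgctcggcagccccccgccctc
Nr4a3: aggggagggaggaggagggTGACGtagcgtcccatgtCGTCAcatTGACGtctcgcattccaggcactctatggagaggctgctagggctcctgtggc

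In the full window of 300 bases around the start, each of the 3 genes held 4 matches on both strands together, and for Nr4a3 the 3 outside annotated exons are shown. Of 32851 promoter windows of that length, 20.8% held at least 1 match and 0.231% (76 windows) held at least 4. The windows of Batf and Prdm1 held 1 match each and that of Irf4 held 0, while Tox2 had 5 windows with 0 or 1. Of the 10 factors, Tox, Bhlhe40 and Nfatc1 were not searched. A match is a description of these letters and not a measured binding site.

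Nr4a2 was at 91.1, 80.9 and 88.3 TPM in the week 2 libraries, at 118, 102 and 72.3 TPM at week 3 and at 219, 225 and 233 TPM at week 4. All week 4 libraries stood well above all 6 earlier ones, and weeks 2 and 3 overlapped. Nr4a2 rose from week 2 to week 4 by log2 1.37 (SE 0.16, 2.58-fold, limma adjusted p = 0.00244).

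Nr4a1 was at 170.4, 233 and 146 TPM at week 2, at 186, 204 and 141 TPM at week 3 and at 184, 209 and 267 TPM at week 4. The 3 weeks overlapped, and the difference from week 2 to week 4 was log2 0.27 (SE 0.21, limma adjusted p = 0.379). Nr4a3, the most abundant of the family at week 2, was at 393, 334 and 205 TPM there, at 279, 249 and 193 TPM at week 3 and at 179, 350.3 and 340.0 TPM at week 4. Its week 4 libraries overlapped those of week 2, with a difference of log2 -0.11 (SE 0.30, limma adjusted p = 0.820).

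The makeup of the family was described by the share of each gene in the sum. Summed Nr4a TPM was 581 ± 122 (SD, n = 3) at week 2, 515 ± 95.4 at week 3 and 735 ± 136 at week 4. The share held by Nr4a2 was 15.5% ± 4.03 at week 2, 18.8% ± 1.30 at week 3 and 31.3% ± 5.46 at week 4. Nr4a1 held 31.8% ± 5.15 and then 30.0% ± 2.90 of the sum, and Nr4a3 52.7% ± 6.77 and then 38.7% ± 7.10. These shares were not tested.

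Bhlhe40 was at 74.3, 78.4 and 89.3 TPM at week 2, at 142, 126 and 83.4 TPM at week 3 and at 263, 249 and 283 TPM at week 4. Week 3 replicate 4 lay within the week 2 range, and every week 4 library was above every earlier one. Bhlhe40 rose from week 2 to week 4 by log2 1.71 (SE 0.18, 3.26-fold, limma adjusted p = 0.00158), the largest difference among the 10.

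Tox was at 31.3, 34.2 and 21.8 TPM at week 2, at 41.9, 38.8 and 25.98 TPM at week 3 and at 52.4, 68.7 and 56.3 TPM at week 4. The lowest week 4 library was above the highest library of weeks 2 and 3. Tox rose from week 2 to week 4 by log2 1.02 (SE 0.22, 2.02-fold, limma adjusted p = 0.0157), but the limma adjusted p was 0.0570 without week 4 replicate 3, at log2 0.90, and 0.0522 without the 2 fibroblast-rich libraries, at log2 1.14. Tox2, its relative, was at 2.02, 1.61 and 0.824 TPM at week 2, at 1.93, 2.61 and 0.409 TPM at week 3 and at 0.741, 0.631 and 0.401 TPM at week 4. Its week 4 libraries lay below those of week 2, in the opposite direction to Tox, with log2 -0.62 (SE 0.36) and a limma adjusted p of 0.241.

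Batf and Irf4, which bind composite DNA elements together, varied little between weeks. Batf was at 59.6, 48.6 and 56.2 TPM at week 2, at 62.6, 49.2 and 48.8 TPM at week 3 and at 68.3, 55.6 and 67.0 TPM at week 4. Irf4 was at 30.2, 39.4 and 26.9 TPM at week 2, at 36.6, 27.4 and 32.8 TPM at week 3 and at 29.5, 29.5 and 36.0 TPM at week 4. All weeks overlapped for both genes. From week 2 to week 4 Batf differed by log2 0.21 (SE 0.14, limma adjusted p = 0.304) and Irf4 by log2 -0.01 (SE 0.17, limma adjusted p = 0.967).

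Nfatc1, the calcium-regulated factor upstream of several of the others, was at 80.2, 80.6 and 40.4 TPM at week 2, at 73.4, 65.7 and 52.3 TPM at week 3 and at 36.4, 50.7 and 55.1 TPM at week 4. Week 2 replicate 3 lay among the week 4 libraries. The difference from week 2 to week 4 was log2 -0.45 (SE 0.27, limma adjusted p = 0.269), and without week 2 replicate 3 it was log2 -0.77 with an adjusted p of 0.0292. Prdm1 was at 2.51, 3.36 and 3.55 TPM at week 2, at 6.68, 6.23 and 4.24 TPM at week 3 and at 5.50, 4.30 and 5.45 TPM at week 4. Every library of weeks 3 and 4 was above every one of week 2, with log2 0.56 (SE 0.20) from week 2 to week 4 and a limma adjusted p of 0.0834. Summed plasma cell markers, of interest because plasma cells make much Prdm1, were 73.6 to 127 TPM at week 2, 99.5 to 197 at week 3 and 112 to 159 at week 4. The same sum was 412 to 508 TPM in week 4 tumor libraries, where only 2 of the 5 markers averaged at least 1 TPM. The sum therefore does not measure plasma cells alone, and their part in the Prdm1 level was not tested.

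The order of the levels shifted with these differences. At week 2 it ran Nr4a3, Nr4a1, Nr4a2, Bhlhe40, Nfatc1, Batf, Irf4, Tox, Prdm1 and Tox2, from 311 to 1.49 TPM. In that order the libraries of neighbours overlapped, except between Nr4a1 and Nr4a2, between Batf and Irf4, and around Prdm1. At week 4 it ran Nr4a3, Bhlhe40, Nr4a2, Nr4a1, Batf, Tox, Nfatc1, Irf4, Prdm1 and Tox2, from 289.9 to 0.591 TPM. Bhlhe40 then lay above Nr4a2 without overlap, and Tox overlapped Batf and Nfatc1.

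From week 2 to week 3, 0 of the 10 factors passed the threshold in limma, beside 0.0449% of all genes (6 of 13350). At an unadjusted limma p under 0.05 there were 2, beside 13.7% of all genes: Prdm1 (log2 0.69, unadjusted p = 0.00740) and Bhlhe40 (log2 0.50, unadjusted p = 0.0206). From week 3 to week 4, 2 of the 10 rose, beside 2.67% of all genes in either direction and 1.38% higher. Nr4a2 rose by log2 1.23 (SE 0.16, limma adjusted p = 0.00970) and Bhlhe40 by log2 1.20 (SE 0.18, limma adjusted p = 0.0132). Genes split into 184 higher and 172 lower, or 324 and 155 with median-of-ratios rescaling of the libraries. The adjusted p of Bhlhe40 was 0.0517 without week 3 replicate 3, 0.0506 without week 4 replicate 2 and 0.0513 without week 4 replicate 3. Tox differed by log2 0.74 (SE 0.22, limma adjusted p = 0.101), and its adjusted p was 0.0365 with that rescaling. Without the 2 fibroblast-rich libraries the adjusted p was 0.0846 for Nr4a2 and 0.0941 for Bhlhe40, at differences of log2 1.28 and 1.27. Each pair of the 3 comparisons between weeks shares the libraries of 1 week.

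**Figure D2:**
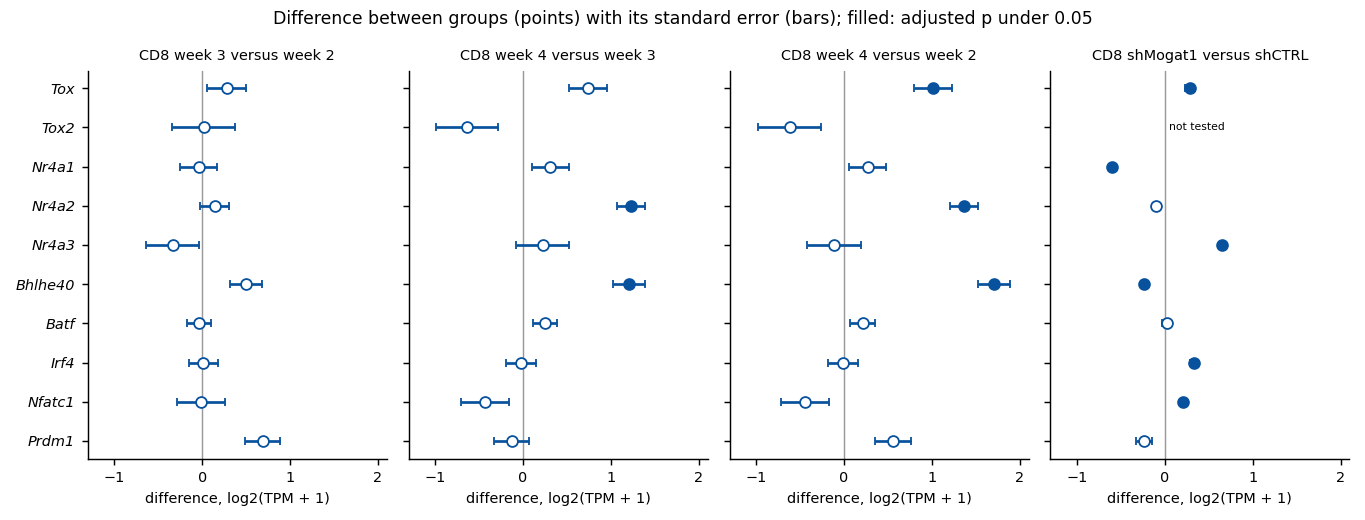
Difference between groups on the log2(TPM + 1) scale (horizontal axes) for each factor in 4 comparisons of CD8 T cell libraries. Points are limma estimates, bars are 1 SE, and filled points have an adjusted p under 0.05. Filled points are 0 of 10, 2 of 10, 3 of 10 and 6 of 9 from left to right.

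Across the 9 time-course CD8 libraries, Nr4a2 and Bhlhe40 followed each other most closely (Pearson r = 0.98 of log2(TPM + 1), n = 9), followed by Tox with Nr4a2 (r = 0.90) and Tox with Bhlhe40 (r = 0.89). For Nr4a3, r was 0.35 with Tox, 0.14 with Nr4a2, 0.00281 with Bhlhe40 and 0.70 with Nfatc1. The points share week, library and scaling, so these are descriptions of 9 libraries. Among 9752 genes of at least 5 TPM on average, the 3 most like Tox were Kif13b (r = 0.979), Ptpn1 (r = 0.979) and Zfp219 (r = 0.977). Those most like Nr4a1 were Tjap1 (r = 0.900), Hps4 (r = 0.899) and Irf2bp2 (r = 0.877). Batf was followed by Ube2t (r = 0.931), A430093F15Rik (r = 0.908) and Taf11 (r = 0.893), and Prdm1 by Phlda1 (r = 0.974), Esrp1 (r = 0.971) and Abcb8 (r = 0.968). Esrp1 is also one of the tumor epithelium markers, and averaged 1.99, 8.94 and 5.48 TPM in CD8 libraries of weeks 2, 3 and 4. Prdm1 itself averaged 13.9 TPM in tumor libraries of week 2 and 22.5 TPM in those of week 3, against 3.14 and 5.72 TPM in the CD8 libraries. Whether tumor cell RNA had a part in the CD8 level of Prdm1 was not tested.

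Genes that act with these factors were counted by list between weeks 2 and 4, and each count stands beside 17.5% of all genes. Of 10 inhibitory receptors, 7 rose and none fell (median log2 1.74), with Cd244 at 40.6 ± 15.4 TPM at week 4 against 4.43 ± 2.42 at week 2 and Cd200r1 at 51.4 ± 9.75 against 7.57 ± 2.41. Of 13 stem-like genes and factors that oppose exhaustion, 8 fell and none rose (median log2 -1.14), among them S1pr1, a receptor for exit from tissue (log2 -2.24, SE 0.59, limma adjusted p = 0.0312) and Lef1 (log2 -1.97, SE 0.58, adjusted p = 0.0458). Of 13 effector genes, 7 rose and none fell, with the granzymes Gzmb (log2 3.17, SE 0.52, limma adjusted p = 0.00633) and Gzma (log2 3.12, SE 0.77, adjusted p = 0.0253) at the top.

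The signalling that leads to NFAT divided. Of 20 such genes, 3 rose and 4 fell. The calcineurin subunit Ppp3cc rose by log2 0.73 (SE 0.12, limma adjusted p = 0.00596) and Malt1 by log2 0.68 (SE 0.11, adjusted p = 0.00612), while the diacylglycerol kinase Dgka fell by 1.38 (SE 0.39, adjusted p = 0.0399) and Prkcq by 0.86 (SE 0.19, adjusted p = 0.0188) on that scale. Of 11 AP-1 and Egr partners, 1 rose, Jun, from 103 ± 31.9 to 263 ± 118 TPM (log2 1.30, SE 0.32, limma adjusted p = 0.0246). Of 12 relatives of the 10 factors, Irf8 (log2 1.73, SE 0.38, limma adjusted p = 0.0170) and Nfat5 (log2 0.57, SE 0.15, adjusted p = 0.0330) rose and Nfatc2ip fell.

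Several other signals moved with week. Of 12 early-response and dissociation genes, which handling of tissue can induce as it can Nr4a genes, 3 rose from week 2 to week 4. The heat-shock gene Hspa1a averaged 64.8 ± 17.8 TPM in the earliest libraries, then 513 ± 114 and 389 ± 71.8. Hspa1a and Hspa1b were also higher at week 3 than at week 2 (log2 2.98 and 2.93, limma adjusted p = 0.000874 for both), and their part in the result was not tested. Summed tumor epithelium markers were 76.7 to 125 TPM at week 2, 144 to 254 at week 3 and 167 to 254 at week 4. Between weeks 2 and 4, 1 of the 10 rose, Cdh1 (23.3 ± 4.22 to 109 ± 34.4 TPM), 1 fell, Krt19 (log2 -2.10, SE 0.59, to 0.0675 TPM), and 8 did not pass. Epcam in the week 4 CD8 libraries was 6.67% of its level in the week 4 tumor libraries, and that share of the tumor level would be 11.1 TPM for Bhlhe40, 4.65 for Nr4a2 and 0.0242 for Tox, against measured CD8 levels of 265, 225 and 59.1 TPM. The same product was 36.9 TPM for Nr4a1 against 220.1 measured, 0.264 for Tox2 against 0.591, and 0.552 for Prdm1 against 5.08. At week 3 it was 1.85 TPM for Prdm1 against 5.72. These products rest on Epcam alone and on tables scaled separately, so they do not measure how much tumor RNA was carried over. Of 10 macrophage markers 0 passed, with summed levels of 60.8 to 369 TPM at week 2 and 295 to 436 at week 4. Of 5 CD4 and regulatory T cell markers, 2 rose, Ikzf2 by log2 1.85 (SE 0.27) and Il2ra by 0.97 (SE 0.19), with summed levels of 62.1 to 72.3 TPM at week 2 and 118 to 173 at week 4. Of 9 T cell markers tested, 2 rose, Cd8a by log2 0.59 (SE 0.11, limma adjusted p = 0.0100) and Cd3g by log2 0.58 (SE 0.14), and 3 fell, led by Cd5 and Cd247 (log2 -0.81 and -0.77). Of the remaining marker lists, 0 of 6 B cell, 0 of 6 dendritic cell and 0 of 6 fibroblast markers passed, 1 of 4 each of NK cell, plasma cell and neutrophil markers was higher, and 1 of 4 endothelial markers, Pecam1, was lower. The part of these cells in the result was not tested.

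**Figure D3:**
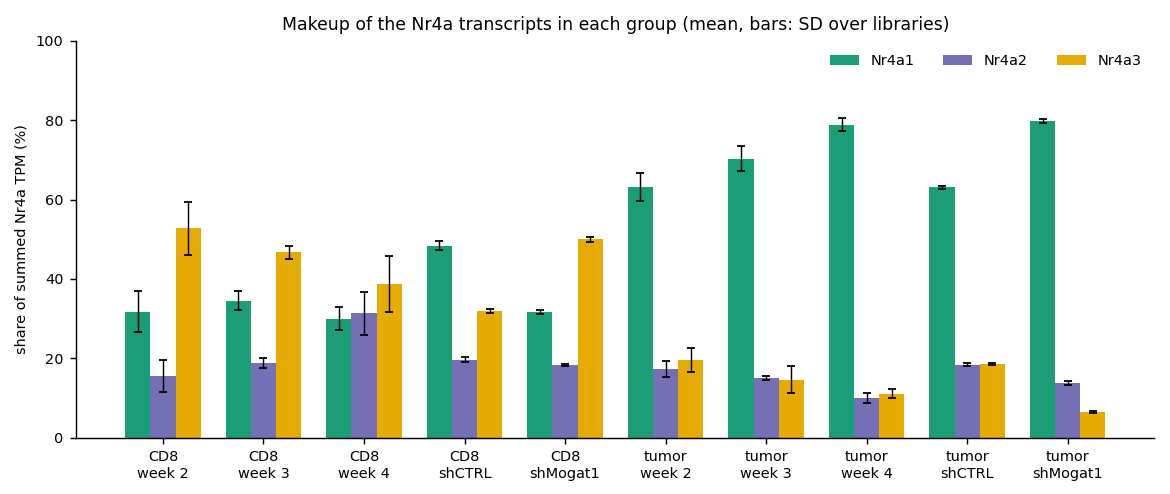
Share of the summed Nr4a TPM held by Nr4a1, Nr4a2 and Nr4a3 (vertical axis, percent, from 0) in each group of CD8 T cell and tumor cell libraries. Bars are means and whiskers 1 SD over libraries (n = 3, and n = 4 for tumor weeks 3 and 4). Nr4a2 holds more at CD8 week 4, and Nr4a1 and Nr4a3 change places between CD8 shCTRL and shMogat1.

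In CD8 T cells from the xenografts, 6 of the 9 factors tested differed between the arms, beside 42.8% of all 13742 genes. In libraries labelled shMogat1, 4 were higher (Nr4a3, Irf4, Tox and Nfatc1), beside 16.6% of all genes, and 2 were lower (Nr4a1 and Bhlhe40), beside 26.2%. All genes split into 2279 higher and 3599 lower, or 3008 and 2972 with median-of-ratios rescaling. Arms did not overlap for these 6 and for Prdm1, beside 54.8% of all genes. The median difference of the 9 was log2 0.02, beside -0.05 for all genes. Tox2 did not pass the expression filter, at 0.981, 0.888 and 0.969 TPM in shCTRL and 0.739, 0.861 and 1.49 TPM in libraries labelled shMogat1.

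Nr4a3 and Nr4a1 showed the widest differences of the 9, in opposite directions. Nr4a1 was at 261, 258 and 266 TPM in shCTRL and at 173, 173 and 170.1 TPM in libraries labelled shMogat1. Nr4a3 was at 166, 177 and 176 TPM in shCTRL and at 270.4, 267 and 277 TPM in the others. Neither gene's arms overlapped. Nr4a1 fell by 0.60 on the log2 scale (SE 0.03, limma adjusted p = 3.6e-06) and Nr4a3 rose by 0.65 (SE 0.04, adjusted p = 8.1e-06). Nr4a2 was at 100.1, 111 and 108 TPM against 97.6, 101 and 100.3 TPM, which overlapped (log2 -0.09, SE 0.04, limma adjusted p = 0.123; 0.0119 without shCTRL replicate 1). The summed Nr4a TPM was 541 ± 12.7 in shCTRL and 543 ± 4.17 in libraries labelled shMogat1. Within that sum the share of Nr4a1 was 48.4% ± 1.12 against 31.7% ± 0.54, and that of Nr4a3 31.9% ± 0.45 against 49.98% ± 0.64.

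The other differences were smaller. Irf4 was at 21.4, 22.7 and 22.6 TPM in shCTRL against 28.3, 28.0 and 28.2 TPM (log2 0.33, SE 0.05, limma adjusted p = 0.000969). Tox was at 22.5, 23.1 and 22.9 TPM against 28.8, 27.0 and 28.2 TPM (log2 0.28, SE 0.05, adjusted p = 0.0022 in limma). Nfatc1 was at 51.1, 54.7 and 51.5 TPM against 62.9, 59.1 and 60.6 TPM (log2 0.21, SE 0.04, adjusted p = 0.00595 in limma). Arms did not overlap for these genes.

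Bhlhe40 was at 253, 247 and 249 TPM in shCTRL and at 209, 215 and 211 TPM in libraries labelled shMogat1, a fall of 0.24 on the log2 scale (SE 0.03, limma adjusted p = 0.000400) with no overlap. Prdm1 was at 8.46, 9.22 and 10.6 TPM against 7.88, 7.50 and 8.15 TPM. Its arms did not overlap either, but its difference of log2 -0.24 (SE 0.09) had a limma adjusted p of 0.0711, and 0.0326 without shCTRL replicate 1. Batf was at 55.6, 59.3 and 53.8 TPM against 59.0, 54.8 and 57.5 TPM, overlapping, with log2 0.02 (SE 0.05, limma adjusted p = 0.748).

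**Figure D4:**
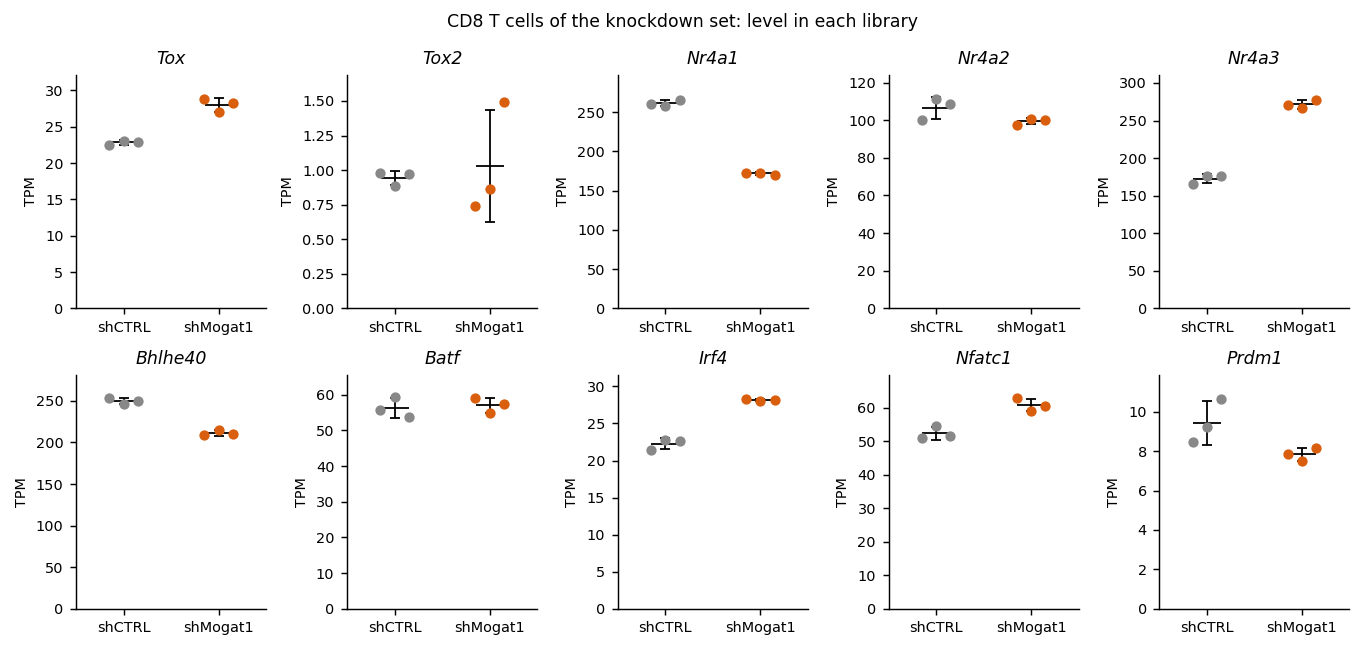
TPM (vertical axes, from 0) of each factor in the CD8 T cell libraries of xenografts labelled shCTRL and shMogat1. Points are libraries, horizontal bars are means and whiskers 1 SD (n = 3 each). Nr4a1 is at 258 to 266 TPM in shCTRL and 170.1 to 173 in the other arm, and Nr4a3 lies the other way.

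Partner genes also divided in this comparison, where 42.8% of all genes passed. Of 20 genes of the signalling toward NFAT, 11 were higher in libraries labelled shMogat1 and 3 lower. The ubiquitin ligase Cblb rose by log2 0.56 (SE 0.05), and Rcan1, a calcineurin inhibitor that NFAT induces, fell from 28.0 ± 1.92 to 17.4 ± 1.02 TPM. Of 11 AP-1 and Egr partners, 3 were higher and 6 lower, with Fosl2 (log2 0.53) among the higher and Fosb (log2 -0.94, SE 0.03) and Egr3 (log2 -0.68, SE 0.05) among the lower, in the direction of Nr4a1. Of 10 inhibitory receptors, 3 were higher, with Ctla4 (log2 0.65) and Pdcd1 (log2 0.42) at the top, and 4 lower, with Lag3 (log2 -0.76) and Havcr2 (log2 -0.66). Of 13 effector genes, 2 were higher, Ifng (log2 0.26) and Runx3 (log2 0.22), and 5 lower, led by Klrg1 (log2 -1.47) and Prf1 (log2 -0.71). Of 12 relatives of the factors, 5 were higher, led by Bhlhe41 (log2 0.53) and Prdm2 (log2 0.46), and 1 was lower, Irf8 (log2 -1.19). Of 13 stem-like genes, 10 were higher, with S1pr1 by log2 0.67 and Foxo1 by log2 0.52, and 1 was lower, Id3 (log2 -1.11).

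The arms also differed in signs of handling and of other cells. Of 12 early-response and dissociation genes, 7 were lower in libraries labelled shMogat1, Hspb1 and Ier3 by most, and 3 were higher, led by Btg2 and Klf6. Of 10 tumor epithelium markers, 8 were higher and 1 lower, with summed levels of 94.1 to 101 TPM in shCTRL and 235 to 237 TPM in the other arm. Of 6 fibroblast markers, 5 were lower, with summed levels of 1833 to 1873 against 873 to 927 TPM. Summed macrophage markers were 2101 to 2142 against 2306 to 2430 TPM. Of 4 plasma cell markers, 2 were higher, Jchain (44.0 ± 2.06 to 112 ± 2.08 TPM) and Mzb1 (log2 0.81), and 1 was lower, Sdc1 (log2 -0.57). Of 5 CD4 and regulatory T cell markers, 3 were higher, led by Foxp3 (log2 0.57) and Il2ra (log2 0.47), and Cd4 was lower (log2 -0.45). Of NK cell markers 3 of 4 were lower, and of dendritic cell markers 4 of 6. Of 9 T cell markers 3 were higher, and Cd8a differed by log2 -0.03 (SE 0.03, limma adjusted p = 0.521). Their part in the differences of the 10 factors was not tested.

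Tumor cell libraries served as background. Tables were scaled separately, so levels are set side by side with no test. At week 4, Tox averaged 0.363 ± 0.223 TPM (n = 4) in tumor libraries and 59.1 ± 8.48 (n = 3) in CD8 libraries, Batf 1.89 ± 1.03 and 63.7 ± 7.01, Irf4 1.61 ± 0.47 and 31.6 ± 3.76. In week 4 tumor libraries Nr4a2, Nr4a3 and Nfatc1 were also lower, averaging 69.8, 78.1 and 3.56 TPM against 225, 289.9 and 47.4. Nr4a1, Prdm1 and Tox2 were higher in tumor libraries at that week. Nr4a1 averaged 553 ± 126 TPM there against 220.1 ± 42.8 in CD8 libraries, and Prdm1 8.27 ± 1.25 against 5.08 ± 0.68. Tox2 averaged 3.96 TPM in tumor libraries against 0.591 in CD8 libraries. Bhlhe40 averaged 166 ± 28.1 TPM in tumor libraries at week 4 and 265 ± 17.5 in CD8 libraries, the reverse of week 2, when it averaged 215 ± 87.4 and 80.7 ± 7.71.

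**Figure D5:**
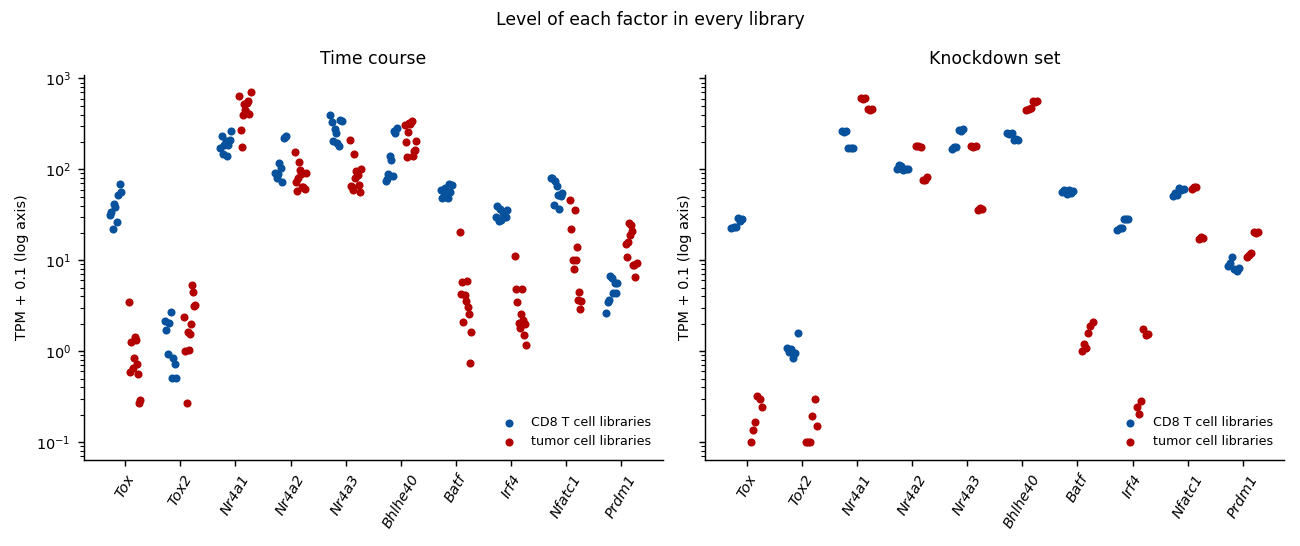
TPM + 0.1 on a log axis for each factor in every library of the time course (left) and of the knockdown set (right). Blue points are CD8 T cell libraries and red points tumor cell libraries, which were scaled in separate tables. Tox, Batf and Irf4 lie lower in all tumor libraries, and Nr4a1 and Bhlhe40 overlap or lie higher there.

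From week 2 to week 4 in tumor libraries, 5 of the 10 passed, beside 46.3% of all genes, 1 higher (29.2% of all genes) and 4 lower (17.1%). All genes split into 4318 higher and 2525 lower, or 3539 and 3435 with median-of-ratios rescaling. Tox2 rose, with 2.25, 0.892 and 0.169 TPM at week 2 and 5.29, 4.42, 3.04 and 3.09 TPM at week 4 (log2 1.34, SE 0.31, limma adjusted p = 0.00512). Nfatc1 (log2 -2.33, SE 0.51), Batf (log2 -1.72, SE 0.48), Irf4 (log2 -1.38, SE 0.35) and Prdm1 (log2 -0.68, SE 0.17) fell, but with array weights the limma adjusted p was 0.0929 for Batf and 0.0588 for Irf4. Week 2 replicate 1 was highest for Nfatc1, Batf and Irf4, at 45.8, 20.4 and 11.1 TPM. Of 9 T cell markers tested in the same comparison 8 fell (median log2 -2.25), among them Cd8a, from 13.5 ± 6.05 to 1.64 ± 1.27 TPM, and their part in these differences was not tested. Prdm1 was highest at week 3, at 25.9, 18.6, 24.6 and 20.8 TPM.

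Between tumor arms of the knockdown set, 8 factors were tested and all 8 passed, beside 54.5% of all genes, 4 higher (34.6% of all genes) and 4 lower (19.9%). All genes split into 4479 higher and 2573 lower, or 3107 and 3758 with median-of-ratios rescaling. Nr4a3 was at 182, 175 and 179 TPM in shCTRL and at 35.9, 37.9 and 36.9 TPM in libraries labelled shMogat1 (log2 -2.25, SE 0.03, limma adjusted p = 5.0e-09). Nfatc1 fell by 1.78 on that scale (SE 0.04), Nr4a2 by 1.17 (SE 0.03) and Nr4a1 by 0.42 (SE 0.02). Irf4 (log2 1.13, SE 0.12), Prdm1 (log2 0.79, SE 0.05), Batf (log2 0.47, SE 0.12) and Bhlhe40 (log2 0.27, SE 0.02) were higher. Batf did not pass with quantile scaling (log2 0.18, limma adjusted p = 0.240) or without shMogat1 replicate 4 (log2 0.40, adjusted p = 0.0591). Tox and Tox2 were under the filter, Tox2 being listed at 0 in all shCTRL libraries. These arms differed in makeup. Epcam, an epithelial marker, was at 0.692 ± 0.155 TPM in shCTRL against 29.6 ± 1.17 in the others. In CD8 libraries of the knockdown set, scaled separately, it averaged 3.87 ± 0.93 TPM in shCTRL and 29.4 ± 1.03 in those labelled shMogat1. Epcam was thus not lower in shCTRL CD8 libraries than in shCTRL tumor libraries. Tumor libraries of the time course averaged 305, 458 and 529 TPM of Epcam at weeks 2, 3 and 4. Between the tumor arms, all 9 epithelium markers tested were higher in libraries labelled shMogat1, as were all 10 macrophage markers. So were 6 of 7 T cell markers tested (median log2 0.98) and all 4 plasma cell markers tested (median log2 1.13). The 2 dendritic cell markers and the 1 B cell marker tested were higher too. The 1 NK cell marker tested was lower, and fibroblast markers divided, 2 higher and 3 lower of 6. The part of these cells was not tested.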

How the data were processed

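RNA of CD8 T cells and tumor cells was extracted with TRIZOL and made into stranded mRNA libraries, per the labels' protocols. The authors deposited TPM in 4 tables (CD8 time course, 9 libraries; tumor time course, 11; knockdown CD8, 6; knockdown tumor, 6). HISAT2, Trim Galore, FastQC and the mm10 build appear without versions in the submitters' processing notes; the read counter and annotation are not given in the sources used here. Per table, 27 rows with a date in place of a symbol (at most 0.184% of TPM) were left out.

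Genes with at least 1 TPM in at least 3 libraries of a table were tested on log2(TPM + 1) with limma 3.58.1 (R 4.3.3, eBayes with trend), all groups of a table in 1 fit, with Benjamini-Hochberg adjustment over all tested genes and a threshold of 0.05. The fit was tested on simulated data. Correlations and sums used Python 3.11.15. Whole reads were recovered from the TPM steps (tolerance 0.03) for 19873 genes, which held 31.1% to 37.4% of TPM and 8630096 to 14879951 reads per library; they describe depth only, since the remaining genes gave none. Intervals were not computed. Between 11829 and 14184 genes reached 1 TPM per library.

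Groups came from the sample titles. Alternatives were another pseudocount, other filters, median-of-ratios and quantile scaling, array weights, the replicate number as a block, 2 weeks alone, and leaving out each library, plus, chosen after seeing the data, leaving out the 2 CD8 libraries with the most fibroblast RNA. The 10 factors and the gene and marker lists were chosen with earlier results of these data known, so no list is independent evidence. All 10 factors are named. From the other lists, genes are named from the up to 2 higher and 2 lower past the threshold with the largest difference and at least 5 TPM in the higher group (not all of these are named), and for Tox, Nr4a1, Batf and Prdm1 the 3 genes of most similar pattern. A gene of the signalling list is not reported here. Of 176 list entries, 2 were not matched to a row. Cd244 is the row taken for Cd244a. The coordinates of the sequences are those of the RefSeq table (GRCm38.p6), which the mm10 build of the notes equals in its chromosomes.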

Additional observations from a re-analysis of the deposited data

Results flagged for a closer look

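In the tumor week 4 group of 4 libraries, replicate 4 stood apart for Nr4a2 at 90.8 TPM, where the others lay between 61.2 and 63.9, and replicate 3 for Prdm1 at 6.42 TPM, where the others lay between 8.71 and 9.14. These were 2 of 20 such tests, and chance marks about 1 in 20.

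Factors whose libraries moved one way in CD8 T cells and the other way in tumor cells under the same comparison are given with both differences on the log2(TPM + 1) scale; the difference between the cell types was not tested. From week 2 to week 4, Tox2 differed by -0.62 in CD8 libraries and by 1.34 in tumor libraries, and Prdm1 by 0.56 and -0.68. Neither CD8 difference passed the threshold (limma adjusted p = 0.241 for Tox2 and 0.0834 for Prdm1). Between libraries labelled shMogat1 and shCTRL, Nr4a3 differed by 0.65 in CD8 libraries and by -2.25 in tumor libraries, and Bhlhe40 by -0.24 and 0.27. For Nfatc1 the CD8 difference was 0.21 and the tumor difference -1.78, and for Prdm1 they were -0.24 and 0.79. The CD8 difference of Prdm1 did not pass between the arms either (limma adjusted p = 0.0711).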

How the results depend on the processing

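The CD8 count of 3 factors from week 2 to week 4 was 6 with array weights, whose estimation stopped before converging, and the count of all genes went from 2335 to 5910 there, 1422 with the replicate number as a block, 1356 in a fit of the 2 weeks alone and 500 without the 2 fibroblast-rich libraries. Leaving out each library gave 928 to 3115 genes and 2 to 4 factors. From week 2 to week 3, the 6 genes became 869 with array weights, with 2 factors, and 0 with the block; leaving out each library gave 5 to 10 genes and no factor. From week 3 to week 4, the 356 genes became 234 without a filter, 605 with quantile scaling, 3661 with array weights, 3 with the block and 12 without the 2 fibroblast-rich libraries, and the 2 factors became 0 in the last 2 settings. Leaving out each library gave 46 to 630 genes and 1 or 2 factors; Bhlhe40 was lost without week 3 replicate 3 (adjusted p = 0.0517), week 4 replicate 2 (0.0506) or week 4 replicate 3 (0.0513) in limma. With the block its limma adjusted p was 0.0698 and that of Nr4a2 was 0.0513. In tumor libraries from week 2 to week 4, the 5 factors became 3 with the filter at 5 TPM, which tests fewer genes.

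The replicate numbers do not pair the samples: same-numbered CD8 libraries of the time course deviated together with correlations of -0.24 to 0.43 over 6 pairs, so the block shares only a number. Between the CD8 arms the 6 factors were 6 to 8 over all settings, and leaving out each library gave 4620 to 5465 genes. The split of higher against lower genes there was 2279 to 3599, and 3008 to 2972 with median-of-ratios rescaling; the 6 factors that passed had the same direction and call with it and with quantile scaling. Median-of-ratios rescaling moved the median of all genes from 0.10 to -0.01 from week 2 to week 3 and from -0.13 to -0.00 from week 3 to week 4, with a split of 324 to 155 in place of 184 to 172.

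Only factors that had not passed changed sign. In CD8 libraries from week 2 to week 4, Irf4 was 0.00233 with median-of-ratios, 0.0398 with quantile scaling and 0.14 without the 2 fibroblast-rich libraries (-0.13 to 0.14 leaving out each library), and Nr4a3 was 0.0157 with the block (-0.38 to 0.20). From week 2 to week 3, Tox2 was -0.0872 with a pseudocount of 0.1, -0.0607 with median-of-ratios and -0.32 with quantile scaling (-0.26 to 0.42), and Irf4 was -0.11 with median-of-ratios, -0.069 with quantile scaling and -0.0367 with array weights (-0.10 to 0.17). Without the 2 fibroblast-rich libraries Nr4a1 was 0.0388 and Nfatc1 0.12 there. Leaving out each library gave Nr4a1 -0.19 to 0.15, Nfatc1 -0.34 to 0.15, Batf -0.15 to 0.025 and Nr4a2 -0.0112 to 0.34. From week 3 to week 4, Irf4 was 0.11 with both scalings (-0.13 to 0.0666) and Prdm1 0.0211 with quantile scaling. Leaving out each library gave Batf -0.0094 to 0.0599 between the CD8 arms and, in tumor libraries from week 2 to week 4, Nr4a2 -0.61 to 0.093 and Nr4a3 -0.63 to 0.22, both reversed without week 2 replicate 1. The cause was not tested.

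Depth limits Tox2 most, at 15 to 104 reads in the CD8 time course. In the knockdown tumor libraries Irf4 rested on 6 to 111 reads and Batf on 12 to 25.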
